A study of Mus musculus with 8 samples.

Results

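The neural intermediate filament genes Nefl, Nefm, Nefh, Ina, Prph, Nes, Vim and Gfap were read in RNA-seq of 8 whole neuroblastomas from mice homozygous for TH-MYCN. They were chosen by symbol, as the genes of the filament proteins of neurons, neural progenitors and glia, and are 8 of the 17488 genes in the deposited table. Both groups carried the transgene, in which the promoter of tyrosine hydroxylase directs human MYCN to sympathetic cells. Panobinostat, an inhibitor of histone deacetylases, was given to 4 animals as 2 doses of 5 mg/kg set 24 h apart, and 4 animals received vehicle. Tumours of 200 to 300 mm3, at about 6 weeks of age, entered treatment and were taken 4 h after the second dose. Each library came from the tumour of 1 animal, stroma included, so fewer cells of a type and less RNA per cell cannot be told apart in any of the levels given here.

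Intermediate filaments are rope-like polymers of proteins that share a central coiled-coil rod and differ in their head and tail. In neurons, the light, medium and heavy neurofilament subunits (from Nefl, Nefm and Nefh) assemble with alpha-internexin (Ina) or, in peripheral neurons, with peripherin (Prph), and set the calibre of axons. Nestin (Nes) and vimentin (Vim) form the filaments of neural progenitors, vimentin also those of fibroblasts, endothelium and leukocytes, and glial fibrillary acidic protein (Gfap) those of astrocytes and some peripheral glia.

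Panobinostat-treated tumours held fewer neurofilament and alpha-internexin transcripts and more peripherin, nestin, vimentin and glial fibrillary acidic protein transcripts than vehicle-treated tumours. The heavy subunit gene Nefh was 3.96-fold lower, a log2 change of -1.99 (SE 0.16) between groups of 4 tumours. Nes rose 3.77-fold and Vim 3.54-fold, with log2 changes of 1.91 (SE 0.22) and 1.82 (SE 0.26). Prph went from 14 to 249 reads per library to 450 to 534 reads. With limma and Benjamini-Hochberg adjustment over all genes tested, 4 of the 8 genes rose and 4 fell at an adjusted p under 0.05, in data where 63.7% of the 16157 tested genes made a call (31.2% higher and 32.4% lower). Levels of the 2 groups did not overlap for 7 of the 8 genes, 4 higher and 3 lower, as for 59.7% of tested genes (28.5% higher and 31.2% lower). The median absolute log2 change was 1.87 over the 8 genes and 0.71 over all genes tested.

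**Figure D1:**
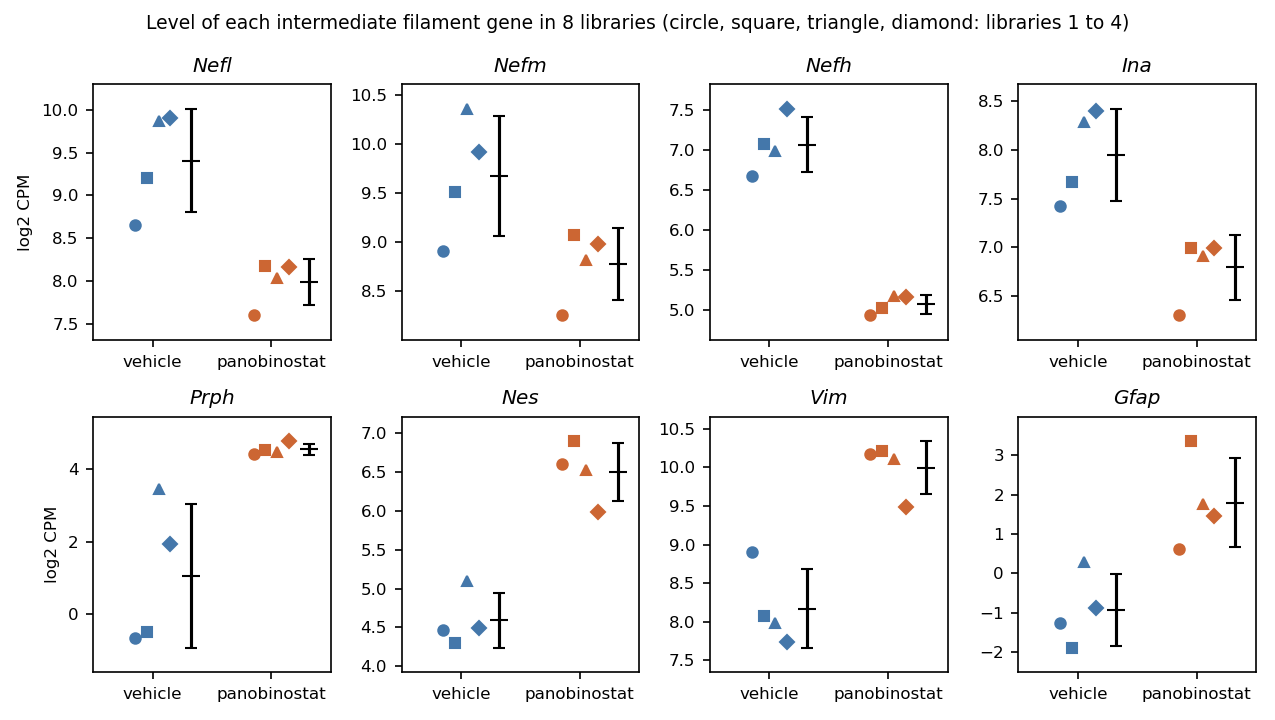
Level of each of the 8 genes as log2 CPM (reads scaled to library size, on a log2 scale) in the 4 vehicle (blue) and 4 panobinostat (orange) libraries, with mean and SD in black. The 2 groups overlap for Nefm only, and Prph varies more among vehicle tumours (SD 1.99) than among panobinostat tumours (SD 0.15).

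Depth was similar across the libraries, with 18664066 to 23830026 reads summed over the listed genes, so that 1 CPM stood for 19.3 to 22.6 reads. All 8 genes passed the filter of at least 1 CPM in at least 4 libraries. Prph and Gfap met it through the treated group, where all 4 libraries reached 1 CPM, against 2 and 1 of the 4 vehicle libraries. Both enter the 4 genes counted as higher and the median change of the 8 genes. They were thus kept for testing by the group in which they were high. The median log2 change of all tested genes was -0.02 and lay between -0.16 and 0.10 under other scalings, a shift smaller than the change of any of the 8 genes. Sympathetic neuroblast markers were present in every library (Isl1, a transcription factor gene of this lineage, at 2080 to 16009 reads). Panobinostat libraries held adrenal cortex markers at 38.9 to 2747 summed CPM, against 8.90 to 11.4 CPM with vehicle, and the most stood in libraries 3 and 4. Without those 2 libraries the direction of all 8 filament genes was kept and only Nefm lost its call. Panobinostat library 1, which stayed in, held 719 CPM of these markers. Leaving out libraries 3 and 4 therefore does not free the treated group of adrenal cortex markers. Counts of marker and list genes are given without libraries 3 and 4 where they differ.

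The rod of these proteins ends in a motif that all family members share, and its codons in the 8 genes are set side by side here. A stretch chosen for a shared motif does not measure how closely whole transcripts are related. The stretch below was found by translating each gene's main coding transcript in GENCODE M21 (the one with the longest coding sequence) and searching for the motif, which occurred 1 time in each. Capitals mark the 14 of 27 bases that are identical in all 8 genes, a number that the search itself favours.
Nefl: gCtTACAGaAaacTctTgGAaGgcGAa
Nefm: gCgTACAGgAaacTccTaGAgGggGAa
Nefh: gCtTACAGaAagcTccTgGAaGgcGAa
Ina: gCtTACAGgAagcTccTgGAaGgtGAa
Prph: aCcTACAGgAagcTacTgGAaGggGAg
Nes: aCaTACAGgActcTgcTgGAgGctGAg
Vim: aCcTACAGgAagcTgcTgGAaGgcGAg
Gfap: aCcTACAGgAaatTgcTgGAgGgcGAa
Against Vim, Prph shared 25 of the 27 bases, Gfap 23, Nefh and Ina 22, Nes 21, Nefl 20 and Nefm 19. Over the whole main transcripts the longest exact match between any 2 of the genes was 35 bases, between Nefm and Prph, and the next was 23 bases.

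Nefl, the light subunit on which neurofilament assembly depends, lies on the plus strand of chromosome 14 (68083863 to 68089095, mm10). Its level was 402, 590, 938 and 957 CPM in vehicle libraries 1 to 4 and 194, 288, 263 and 287 CPM in panobinostat libraries 1 to 4. The groups did not overlap, and vehicle libraries 3 and 4 stood highest. The log2 change was -1.41 (SE 0.27, limma, adjusted p = 0.00163), or 2.67-fold lower.

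Nefm, the medium subunit, is annotated on the minus strand of the same locus (68082590 to 68124846), with a long transcript that shares 1108 exon bases with Nefl, 32.8% of the exon bases of Nefl. The main coding transcripts of both share none. Whether the authors' counting used strand is not given in the sources used here, so reads in the shared bases cannot be assigned. Nefm stood at 481, 730, 1313 and 968 CPM with vehicle and at 305, 539, 452 and 504 CPM with panobinostat. Its groups overlapped, because vehicle library 1 lay below panobinostat library 2. The log2 change was -0.89 (SE 0.30, limma, adjusted p = 0.0257). Leaving out vehicle library 3 ended the call (adjusted p = 0.0626), as did leaving out vehicle library 4 (0.0692), panobinostat library 1 (0.0692) or panobinostat libraries 3 and 4 together (0.0714). Quantile normalization (0.0822) and a test against a 1.5-fold change (0.366) ended it too.

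Nefh, the heavy subunit whose long phosphorylated tail projects from the filament, lies on the minus strand of chromosome 11 (4938754 to 4948064). Levels were 102, 135, 127 and 182 CPM with vehicle and 30.7, 32.6, 36.2 and 36.1 CPM with panobinostat. The lowest vehicle library stood far above the highest panobinostat library, and the SD within the treated group was 0.12 on the log2 scale. It had the smallest adjusted p of the 8 genes (limma, 1.40e-05), and its absolute log2 change exceeded that of 88.6% of tested genes.

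Ina, a further partner of the triplet in central and young neurons, lies on the plus strand of chromosome 19 (47014698 to 47025327), where 456 of its exon bases are shared with Nt5c2 on the other strand. It held 172, 204, 312 and 339 CPM with vehicle and 78.6, 127, 120 and 127 CPM with panobinostat, without overlap. The log2 change was -1.15 (SE 0.24, limma, adjusted p = 0.00261), and the adjusted p was 0.0670 against a 1.5-fold change. Like Nefl and Nefm, Ina was highest in vehicle libraries 3 and 4 and lowest, within its group, in panobinostat library 1.

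Neuronal markers moved with the neurofilament genes. Of 10 pan-neuronal markers, 9 fell (8 without panobinostat libraries 3 and 4) and none rose (1 rose with library weights), with a median log2 change of -1.38, and their summed level was 3649 to 5898 CPM with vehicle and 1444 to 1851 CPM with panobinostat. The beta-tubulin gene Tubb3 fell by 2.12 (SE 0.16) and the log2 change of the RNA-binding protein gene Elavl3 was -1.61 (SE 0.14). Among vehicle libraries this sum was highest in libraries 3 (5898 CPM) and 4 (5502 CPM), as were Nefl and Ina. Beside the counts of this and every later marker list stand the shares over all tested genes, 31.2% higher and 32.4% lower. Of 8 sympathetic neuroblast markers 6 fell and none rose (1 rose with library weights), with a median of -1.97. The part of these markers in the neurofilament values was not tested.

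Peripherin, the filament protein of peripheral and sympathetic neurons, is encoded by Prph on the plus strand of chromosome 15 (99055174 to 99058978). Its reads were 14, 14, 249 and 80 in vehicle libraries 1 to 4 and 476, 450, 468 and 534 in panobinostat libraries 1 to 4. Every treated tumour stood above every vehicle tumour, while vehicle tumours differed from one another far more than treated ones did (SD 1.99 against 0.15 log2 units). The log2 change was 3.49 (SE 0.82, limma, adjusted p = 0.00455). Without vehicle library 3 it was 4.29, or 19.6-fold in place of 11.2-fold. It was 2.92 without vehicle library 1, and 2.78, or 6.86-fold, with 1 CPM added before the log. Its absolute change exceeded that of 98.6% of tested genes, although its mean level exceeded that of only 27.0%.

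Neuronal and Schwann cell markers were set beside Prph library by library. Vehicle libraries 3 and 4, which held most of the vehicle Prph reads, were the highest of their group in summed neuronal and Schwann cell markers (162 and 161 CPM, against 98.3 and 115 CPM in libraries 1 and 2). Most of the Schwann cell sum in each vehicle library came from Mbp (1813, 1835, 2158 and 2560 reads in libraries 1 to 4). In treated tumours the neuronal sum was lower than in any vehicle tumour while Prph was higher. The Schwann cell sum ran from 126 to 465 CPM across treated libraries, and Prph from 21.3 to 27.2 CPM. Of 10 Schwann cell markers 8 rose and none fell, with a median of 2.80, and 4 rose without panobinostat libraries 3 and 4. The Schwann cell and neurotrophin receptor gene Ngfr rose by 3.03 (SE 0.57). The myelin gene Mbp, the list's highest in CPM, went the other way without a call (log2 change -0.53, SE 0.23, limma, adjusted p = 0.0691), and it fell when libraries were centred by their median or trimmed mean, or without panobinostat library 2. Named after their values were seen, the neuronal marker Mapt (600, 450, 3109 and 1572 vehicle reads) and the Schwann cell markers Sox10 (8, 22, 214 and 118) and Foxd3 (5, 12, 126 and 85) were, like Prph, highest in vehicle libraries 3 and 4. The part of these cells in the Prph values was not tested.

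Nes, the gene of nestin, lies on the plus strand of chromosome 3 (87971078 to 87980451). It stood at 22.2, 19.7, 34.3 and 22.4 CPM with vehicle and at 97.4, 119, 91.9 and 63.6 CPM with panobinostat, without overlap. Panobinostat library 4 was the lowest treated library and still above vehicle library 3, the highest of its group. The test gave an adjusted p of 7.89e-05 (limma).

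Vim, on the plus strand of chromosome 2 (13573927 to 13582826), was the most abundant of the 8 in treated tumours. Its levels were 478, 270, 252 and 213 CPM with vehicle and 1151, 1190, 1099 and 717 CPM with panobinostat. As with Nes, the groups did not overlap and panobinostat library 4 was the lowest of its group, while vehicle library 1 was the highest of the vehicle group (limma, adjusted p = 2.51e-04).

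Markers of cell types that make vimentin were higher in the same libraries. All 10 fibroblast and mural cell markers rose (9 without panobinostat libraries 3 and 4, median 2.18), and their sum ran from 1581 to 4950 CPM in the vehicle group and from 8496 to 15480 CPM in the treated group. The collagen gene Col1a2 rose by 2.64 (SE 0.36) and Lum, a small proteoglycan gene, by 3.68 (SE 0.43). Of 8 macrophage markers 7 rose and none fell (median 2.34), with sums of 273 to 583 CPM and 1257 to 2126 CPM. Of 7 endothelial markers 2 rose, and their sums overlapped (89.0 to 477 CPM and 310 to 483 CPM). That count was 4 without vehicle library 1, 3 without vehicle library 2 and 1 when any single other library was left out, or without panobinostat libraries 3 and 4 together. Vehicle library 1, the highest vehicle library in Vim, was also the highest of its group in the fibroblast (4950 CPM), macrophage (583 CPM) and endothelial (477 CPM) sums. Panobinostat library 4, the lowest treated library in Vim, was the lowest of its group in the same 3 sums. All 5 adipocyte markers rose as well (20.5 to 558 CPM, then 853 to 1167 CPM), 3 of them without panobinostat libraries 3 and 4. Of 4 chromaffin cell markers 1 rose, and none without those libraries. The part of these cells in the Vim and Nes values was not tested.

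**Figure D2:**
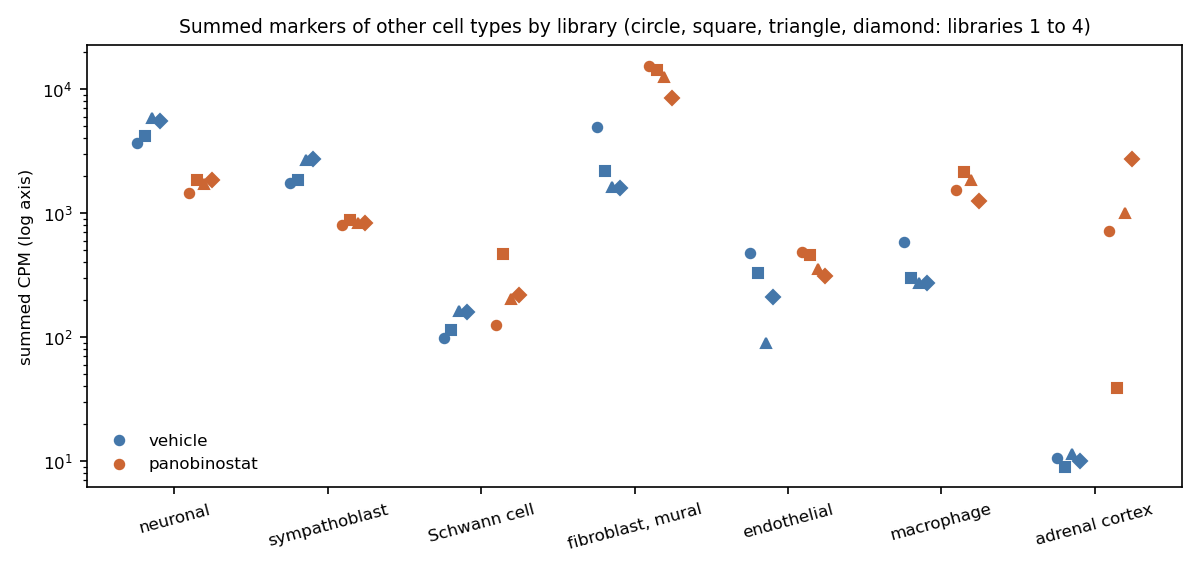
Summed CPM (log axis) of the markers of 7 cell types in each library, vehicle in blue and panobinostat in orange, with symbols for libraries 1 to 4. Neuronal and sympathetic neuroblast sums are lower, and fibroblast and macrophage sums higher, in all 4 panobinostat libraries, and the adrenal cortex sum reaches 2747 CPM in panobinostat library 4.

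Gfap, on the minus strand of chromosome 11 (102887336 to 102900912), was barely detected with vehicle, at 9, 5, 27 and 11 reads. Panobinostat libraries held 34, 197, 71 and 53 reads, all above every vehicle library, with library 2 the highest. The log2 change was 2.74 (SE 0.63, limma, adjusted p = 0.00409), and it was 1.56 with 1 CPM added before the log and 1.95 with quantile normalization. Library 2 was also the highest in the summed Schwann cell markers (465 CPM, against 126 to 217 CPM in the other treated libraries). Of 5 tested astrocyte markers 3 rose, among them the glutamate transporter gene Slc1a3 (3.51, SE 0.41). The astrocyte sums of 20.4 to 49.9 CPM and 63.9 to 232 CPM were highest in panobinostat library 4. Most of the sum in that library came from 1 gene, Aldh1l1, named after its values were seen. It held 347, 355, 1065 and 3535 reads in panobinostat libraries 1 to 4. Library 4 was also the highest in adrenal cortex markers (2747 CPM). Aqp4, the water channel of astrocyte endfeet, was named after its values were seen and did not pass the filter: its 4 vehicle libraries held 1, 24, 3 and 1 reads, and its treated libraries 293, 6, 22 and 9. The part of Schwann cells and astrocytes in the Gfap values was not tested.

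Upstream sequence is shown for the 5 members that matched in the RefSeq promoter table (GRCm38.p6): Prph, Vim, Nes and Gfap, which rose together, and Ina, which fell. Each line holds the 120 bases before the start annotated in RefSeq, read 5′ to 3′ on the gene's strand. That start can differ from the GENCODE bounds given above. The Vim and Gfap windows lie inside those bounds, and the Nes window ends inside them. Searched on both strands were the TATA box core TATAAA, the CCAAT box by its letters CCAAT, the GC box core GGGCGG, the E-box CACGTG bound by MYC proteins, and the cyclic AMP response element TGACGTCA. Capitals mark matches, and no matches overlapped.
Prph, chr15:99055054-99055173, plus strand: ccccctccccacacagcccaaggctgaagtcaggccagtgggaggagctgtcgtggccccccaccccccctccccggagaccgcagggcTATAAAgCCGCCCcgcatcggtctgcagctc
Vim, chr2:13574191-13574310, plus strand: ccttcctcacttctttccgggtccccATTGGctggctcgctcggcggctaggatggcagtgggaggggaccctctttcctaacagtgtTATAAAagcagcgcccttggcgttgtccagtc
Nes, chr3:87970973-87971092, plus strand: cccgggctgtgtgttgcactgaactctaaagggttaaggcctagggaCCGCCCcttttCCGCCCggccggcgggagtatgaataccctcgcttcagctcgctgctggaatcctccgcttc
Gfap, chr11:102897201-102897320, minus strand: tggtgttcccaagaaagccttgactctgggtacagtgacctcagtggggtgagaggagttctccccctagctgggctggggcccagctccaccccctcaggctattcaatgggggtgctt
Ina, chr19:47014561-47014680, plus strand: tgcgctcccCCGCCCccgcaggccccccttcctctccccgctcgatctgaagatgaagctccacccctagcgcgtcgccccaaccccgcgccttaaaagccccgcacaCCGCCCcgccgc
TATAAA began 31 bases before the start in Prph and 32 bases before it in Vim, and occurred in 6.34% of the 32851 windows of this length in the table. GGGCGG, found on the other strand in Prph, Nes and Ina, occurred in 26.5%, and CCAAT, found in Vim on the other strand, in 21.3%. CACGTG (3.66% of windows) and TGACGTCA (1.24%) matched none of the 5, and the Gfap window held no match. No motif was common to the 4 windows of genes that rose.

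Levels can be compared between genes only per length, here as CPM per kb of the main coding transcript. In vehicle tumours the order was Nefm, Nefl, Vim, Ina, Nefh, Nes, Prph and Gfap, with log2 means of 7.94, 7.65, 7.04, 6.25, 5.07, 1.97, 0.17 and -2.34. Ranges overlapped between neighbours from Nefm to Ina and from Nes to Gfap, and did not overlap between Ina and Nefh or between Nefh and Nes. In panobinostat tumours the order was Vim, Nefm, Nefl, Ina, Nes, Prph, Nefh and Gfap, with log2 means of 8.86, 7.04, 6.24, 5.10, 3.89, 3.66, 3.08 and 0.40. There only Nes and Prph, which are neighbours, overlapped. Nefh thus went from above Nes and Prph to below both. With the union of all annotated exons as the length, Nefl stood above Nefm and Ina above Vim in vehicle tumours, and Nefm and Nefl overlapped in treated ones.

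The 8 genes summed per kb had log2 means of 9.49 ± 0.34 with vehicle and 9.56 ± 0.19 with panobinostat (SD, n = 4), or 9.06 ± 0.41 and 8.79 ± 0.17 with exon unions as lengths, so the direction of the sum depends on the length used. Nefl, Nefm, Nefh and Ina together made up 60.6%, 79.5%, 86.3% and 87.6% of the sum in vehicle libraries 1 to 4 and 24.6%, 33.7%, 32.9% and 44.6% in panobinostat libraries 1 to 4. Vim made up 38.6%, 19.9%, 12.4% and 11.7% with vehicle and 71.5%, 62.2%, 63.5% and 51.3% with panobinostat. Neither share overlapped between the groups, and within each group library 1 held the largest share of Vim and library 4 the smallest. Prph held 0.0610% to 0.641% of the sum in vehicle tumours and 1.44% to 2.29% in treated ones. Nes held 0.443% to 0.643% and 1.63% to 2.22%, and Gfap was at or under 0.443% in every library. These shares are descriptions without a test. With exon unions as lengths the neurofilament and Ina share was 72.8% to 92.3% and 34.6% to 55.7%.

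**Figure D3:**
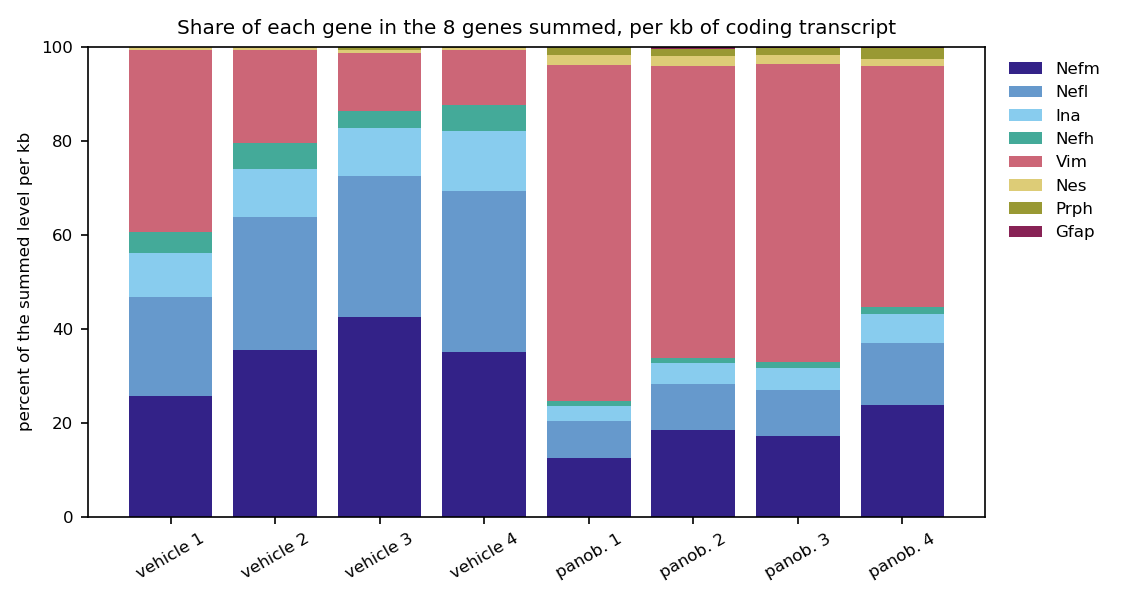
Stacked bars give the percent of the 8 genes' summed level per kb of main coding transcript that each gene holds in each library. The 4 neurofilament and alpha-internexin genes (blue and green) make up 60.6% to 87.6% of vehicle bars and 24.6% to 44.6% of panobinostat bars, and Vim (red) takes most of the rest.

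Ratios between 2 genes of a library do not depend on how libraries are scaled, and 7 were compared with a two-sided exact permutation test over the 70 assignments of 8 libraries, which cannot give a p below 0.0286. None of the 7 passed after Benjamini-Hochberg adjustment, and 2 had that smallest unadjusted p. Nefl over Nefm was -0.26, -0.31, -0.48 and -0.02 on the log2 scale with vehicle and -0.65, -0.90, -0.78 and -0.82 with panobinostat, so that all 4 treated libraries lay below all vehicle libraries, and the group means differed by -0.52 (exact permutation p = 0.0286, adjusted 0.1). Prph over Nefl differed by 4.90 without overlap (exact permutation p = 0.0286, adjusted 0.1). Nefm over Nefh was 2.61 ± 0.51 with vehicle and 3.70 ± 0.31 with panobinostat (SD, n = 4, exact permutation p = 0.0571, adjusted 0.1), with vehicle library 3 inside the treated range. Vim over Nes was 3.58 ± 0.67 and 3.49 ± 0.12 (SD, n = 4, exact permutation p = 0.829), and its direction turned without vehicle library 1.

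**Figure D4:**
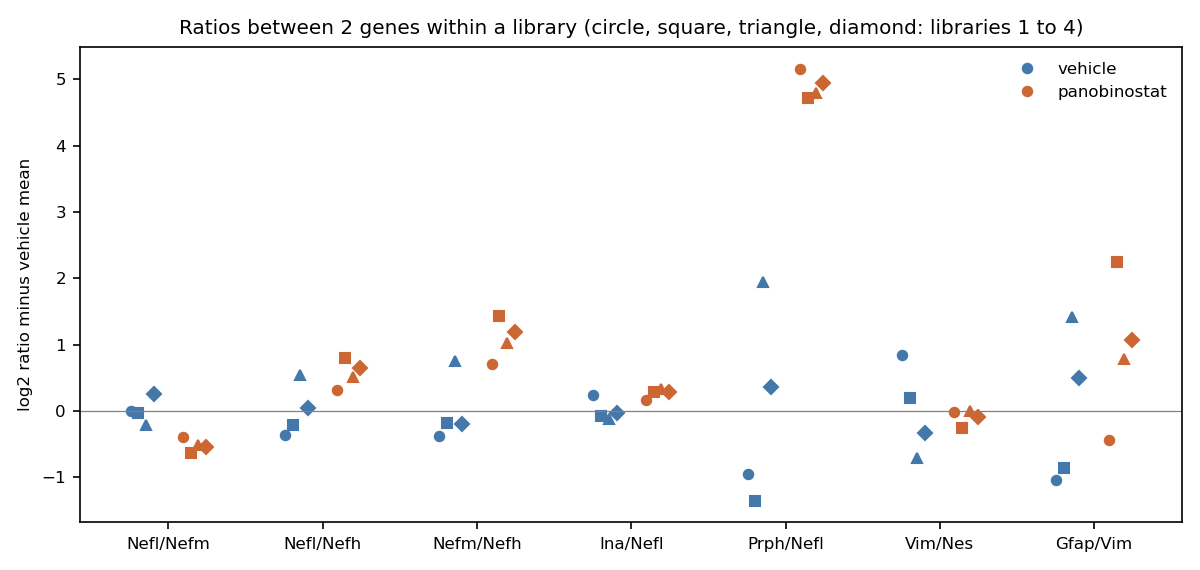
Log2 ratio of 2 genes within each library, minus the vehicle mean of that ratio, for 7 ratios (vehicle blue, panobinostat orange, symbols for libraries 1 to 4). Nefl/Nefm and Prph/Nefl are the ratios whose groups do not overlap, and Vim/Nes lies around 0 in both.

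Genes most like each member were taken as the 3 tested genes with the smallest root-mean-square difference over the 8 libraries, on the log2 scale and after centring on the vehicle mean. For Nefl these were Ecel1 (difference 0.11), Crmp1 (0.12) and Basp1 (0.14), the last pair coding for growth cone proteins. For Nefm they were Dgki, Ncam1 and Kif1a (0.13 to 0.17), and for Ina Syt3, Ogdhl and the beta-tubulin gene Tubb2b (0.09 to 0.10). Nefh was closest to Chst10 (0.05), Tmem28 and Tubb3 (both 0.11). Vim was closest to Cd84, Csf2rb2 and Stk17b (0.12 to 0.15), the first a leukocyte surface receptor gene and the second the gene of a cytokine receptor subunit. For Nes they were Pdlim4, Sorcs2 and the metalloproteinase inhibitor gene Timp2 (0.16 to 0.19). Gfap had Scn7a, Csmd1 and Plxnb3 (0.31 to 0.33), and Prph had no close match, with Cacna1g, a calcium channel gene, at 0.56, Tm6sf2 at 0.58 and Ngfr at 0.59. Among the 8 genes themselves Nefl and Ina differed least (0.22), then Nefm and Ina (0.25) and Nefl and Nefm (0.39), and Nes and Vim by 0.42.

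Of 12 other intermediate filament genes tested (lamins, keratins and further filament proteins) 6 rose and 2 fell, with a median of 1.08 (-0.02 for all tested genes). The share called in this list and in the next is near the 63.7% called over all genes. Without panobinostat libraries 3 and 4, 4 rose and 2 fell. The lamin B genes Lmnb1 and Lmnb2 changed by -1.82 (SE 0.13) and -0.54 (SE 0.14) and both fell, whereas Lmna, the gene of the lamins of differentiated cells, rose by 1.02 (SE 0.16) and Iffo2 by 1.14 (SE 0.11). Synm, whose product synemin copolymerizes with vimentin and desmin, rose by 1.82 (SE 0.31), and the muscle filament gene Des made no call (1.44, SE 0.98), at 221 to 3153 vehicle reads and 577 to 9885 treated reads. Both were named after their values were seen. Of 5 muscle markers, Des among them, 3 rose (1 with library weights or against a 1.5-fold change).

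Genes of proteins that link, move, modify or remove filaments were lower in 7 and higher in 3 of 15 tested cases (median -0.07), and 6 were lower without panobinostat libraries 3 and 4. Kif5c, a kinesin heavy chain of the motor that carries neurofilaments, fell by 1.60 (SE 0.15). Cdk5r1, the activator of a kinase that phosphorylates neurofilament tails, fell by 1.41 (SE 0.16). The linker Dst, with the highest mean log2 CPM of the list (not per length), made no call (0.17, SE 0.17). The 3 that rose were the cross-linker genes Dsp (3.83, SE 0.49), Ppl (3.15, SE 0.59) and Plec (0.45, SE 0.14), the last named after its value was seen. Dsp and Ppl serve epithelial junctions and were near the detection limit in vehicle tumours (6 to 12 and 10 to 79 reads), against 52 to 272 and 143 to 218 reads in treated ones.

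Transcription factors reported to act on one or more of the 8 genes rose in 6 and fell in 3 of 11 tested cases (median 1.20). Over all tested genes 31.2% rose and 32.4% fell. Without panobinostat libraries 3 and 4, 5 rose and 1 fell, and 1 fell with quantile normalization or scaling to read totals. The POU factor genes went apart, with Pou3f1 higher by 3.85 (SE 0.47) and Pou3f2 lower, at -1.72 (SE 0.12). Pou3f1 was near the detection limit in vehicle tumours (4 to 21 reads), against 137 to 176 reads in treated ones. Stat3, a transducer of cytokine signals that acts on the Gfap promoter, rose by 1.20 (SE 0.14), and Nfib fell by 0.61 (SE 0.18). Rest, a repressor of neuronal genes that was named after its value was seen, held 286, 149, 84 and 58 reads in vehicle libraries 1 to 4 and 485 to 773 reads with panobinostat (log2 change 2.47, SE 0.42). Whether these factors bear on the filament genes was not tested.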

How the data were processed

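RNA was sequenced from 8 tumours with an unpaired design, 4 vehicle and 4 panobinostat animals, groups taken from the labels. TruSeq V2 libraries were made from total RNA, per the labels' protocols. For the upstream steps CASAVA 1.8.2, TopHat2, HTSeq, limma and mm10 are listed, per the submitters' processing notes. Annotation, normalization and strand setting: not given in the sources used here. The deposited values are log2 CPM with 0.5 added to each count, of an effective library size: whole reads came back for 100% of them within 0.001 read.

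The 16157 genes that reached 1 CPM in 4 or more libraries entered 1 fit (limma 3.58.1 under R 4.3.3, lmFit and a trended eBayes, no covariate), and two-sided p-values were adjusted by Benjamini-Hochberg over all of them with a threshold of 0.05. The 0.5 already added understates changes of genes with few reads. The fit was tested on simulated data in which few genes changed and all had the same dispersion, unlike these data. Members, ratios and the 14 other lists were chosen with earlier results of these data known. Named genes were the members, of each list the 2 changed genes with the smallest adjusted p in each direction and the one highest in mean log2 CPM, and the 3 nearest genes of each member. Any other is said to be named after its value was seen. A gene that the rule names is not reported here. Annotation is GENCODE M21, upstream sequence RefSeq. The labels name no litter, batch or date. Alternatives covered filters, scalings, the variance model, the value added before ratios and each library left out.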

Additional observations from a re-analysis of the deposited data

Results flagged for a closer look

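Within groups of 4 libraries, 30 sets of values were checked for a library that stands apart, which chance alone gives for about 1 in 20 sets, and 2 were found. Ina in panobinostat library 1 (6.30 log2 CPM) lay below the other 3 treated libraries by a gap that made up 0.872 of the group's range. Vim in panobinostat library 4 (9.49 log2 CPM) lay below the other treated libraries by 0.843 of the range. Both libraries stayed on the treated side of all vehicle libraries.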

How the results depend on the processing

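All 8 genes kept their direction under the 22 alternatives run (21 for Gfap, which a filter of 5 CPM removed), and Nefl, Nefh, Prph, Nes, Vim and Gfap kept their calls in those. Nefm lost its call in 7 and Ina in 1. Alternatives that changed only the filter, the variance model (weights apart), the threshold or the fold tested leave the log2 change as it was. Direction could not turn in those. Against a 1.5-fold change 4988 genes passed in place of 10289, 2 members fell in place of 4 and 14 genes of the other filament, partner and regulator lists changed in place of 27, since that test asks for more. Leaving out 1 library gave 9175 to 10467 changed genes, 4 members higher, 3 to 4 lower and 23 to 27 changed genes of those lists. The log2 change of Prph was 4.40 with library weights and 2.78 with 1 CPM added. No ratio passed under the 11 alternatives, which says little, since most of the 7 must reach the smallest p together before any can pass. Without vehicle library 3, 4 ratios stood at an adjusted exact permutation p of 0.05. Gfap over Vim turned from 0.91 to -0.25 with 1 CPM added, and Vim over Nes from -0.09 to 0.19 without vehicle library 1 (range over single libraries left out -0.33 to 0.19). The cause was not tested. Gfap rests on 5 to 27 reads in vehicle libraries. No paired analysis was possible because the labels give animals of the 2 groups no shared number.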
